A study of Mus musculus with 6 samples.

Results

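The genes described here are 10 carriers that move amino acids across the plasma membrane and so supply globin synthesis: Slc7a5, Slc3a2, Slc43a1, Slc1a5, Slc38a1, Slc38a2, Slc38a5, Slc7a1, Slc7a11 and Slc6a9. They were taken by gene symbol from the 17463 genes of the deposited tables, and all 10 were present. Each passed the filter on low counts, which left 11277 genes.

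RNA-seq covered erythroblasts from the fetal liver of C57BL/6J mice. Cells negative for TER119, a surface protein gained during erythroid maturation, were grown in medium containing erythropoietin (Epo), the cytokine that sustains terminal erythropoiesis, for 30 h. Control cultures (n = 3) received no cholesterol and cholesterol cultures (n = 3) received 40 µM. Per the methods, TER119+ cells were then sorted from these cultures for sequencing, and the controls are called untreated in the labels and vehicle-treated in a figure legend. All 6 samples shared the strain, tissue, Epo medium and culture time, so they describe primary cells maturing in a dish under that hormone and not the fetal liver itself. The labels do not say whether the numbered samples came from separate litters or cultures. A legend speaks of independent experiments for the means ± SD of its panels, without tying them to these libraries, so p-values measure only the spread between these samples, which may be technical.

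An erythroblast fills itself with hemoglobin within a few divisions, and the amino acids for globin chains enter through carriers that differ in what they accept. Exchangers bring in large neutral amino acids such as leucine by letting glutamine out, sodium-coupled carriers concentrate glutamine and other small neutral amino acids, and separate carriers bring in arginine and lysine, cystine, or glycine. Glycine has a further use in these cells, since heme synthesis begins when ALAS2 joins it to succinyl-CoA. When amino acids run short, the transcription factor ATF4 turns on carrier, biosynthesis and tRNA synthetase genes.

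RefSeq start sites gave 10 promoter windows for 7 of the 10 genes, each from 250 bases before to 50 bases after the start on GRCm38.p6. The 3 windows below are shown because they were the only member windows to hold one of the searched motifs, and Slc38a5 among them had the smallest p of the 10 genes. Motifs were searched on both strands, and capitals mark the matches. Both Slc38a5 (chrX:8271131-8271430, plus strand) and Slc43a1 (chr2:84840073-84840372, plus strand) held the E-box CACGTG, at positions -30 and -64 from the start. Slc7a11 (chr3:50443564-50443863, minus strand) held TGATGNAA, the core of the amino acid response element bound by ATF4, at -66 and -47 and in opposite orientations.
Slc38a5: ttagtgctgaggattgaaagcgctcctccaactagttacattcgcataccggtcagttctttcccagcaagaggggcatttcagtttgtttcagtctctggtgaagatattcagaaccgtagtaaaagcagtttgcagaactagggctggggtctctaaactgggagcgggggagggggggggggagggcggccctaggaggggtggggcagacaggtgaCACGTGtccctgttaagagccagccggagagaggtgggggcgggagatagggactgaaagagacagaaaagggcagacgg
Slc43a1: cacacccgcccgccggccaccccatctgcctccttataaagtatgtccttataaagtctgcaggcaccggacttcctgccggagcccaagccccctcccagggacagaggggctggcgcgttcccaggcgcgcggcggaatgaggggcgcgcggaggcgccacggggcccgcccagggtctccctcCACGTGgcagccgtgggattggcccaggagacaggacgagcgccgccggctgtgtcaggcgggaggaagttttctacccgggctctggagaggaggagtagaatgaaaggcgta
Slc7a11: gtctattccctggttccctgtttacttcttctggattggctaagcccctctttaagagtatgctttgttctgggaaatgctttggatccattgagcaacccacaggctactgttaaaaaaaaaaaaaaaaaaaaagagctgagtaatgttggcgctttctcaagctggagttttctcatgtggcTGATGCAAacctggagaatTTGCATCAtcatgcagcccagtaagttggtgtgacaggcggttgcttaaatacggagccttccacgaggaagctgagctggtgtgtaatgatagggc
Of all 32851 windows, 7.15% held CACGTG and 3.97% held TGATGNAA. No member window held TCACNCCAC, a form of the sterol regulatory element, found in 1.24% of all windows, nor the GATA sites AGATAA (11.2%) and TGATAA (9.05%). A match of letters is a description of the window and not evidence of binding. Among the gene loci, Slc38a1 and Slc38a2 lay 44 kb apart on chromosome 15, and the others lay on 8 different chromosomes.

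Transcript levels were compared between carriers in FPKM, which divides by gene length. Slc3a2, the heavy chain that carries several exchangers to the cell surface, had the highest level, 248 ± 27.6 FPKM in control (SD, n = 3) and 242 ± 35.7 in cholesterol samples, above 98.5% of all genes. Then came 4 carriers, each overlapping with the next in its range over the 6 samples, so neighbours in this order did not differ beyond their spread. Slc6a9 had a control mean of 164 ± 4.34 FPKM. Slc38a5 had 156 ± 15.3 FPKM, Slc7a5 had 148 ± 12.3 FPKM, and Slc43a1 had 137 ± 16.5 FPKM. Slc1a5 came next, at 108 ± 5.15 FPKM in control and 98.0 ± 6.93 FPKM in cholesterol samples, and in every sample its level lay below the lowest value of Slc43a1. Slc38a2 (31.4 ± 1.05 FPKM) and Slc7a1 (28.0 ± 2.34 FPKM) overlapped over the 6 samples. Slc38a1 had 7.86 ± 2.07 FPKM and Slc7a11 had 2.02 ± 0.382 FPKM in control samples, each clear of its neighbours, and Slc7a11 stood above only 53.4% of all genes. The 10 cholesterol means had the same order, except that Slc7a5 (143 ± 4.23 FPKM) lay above Slc38a5 (140 ± 10.3 FPKM).

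**Figure D1:**
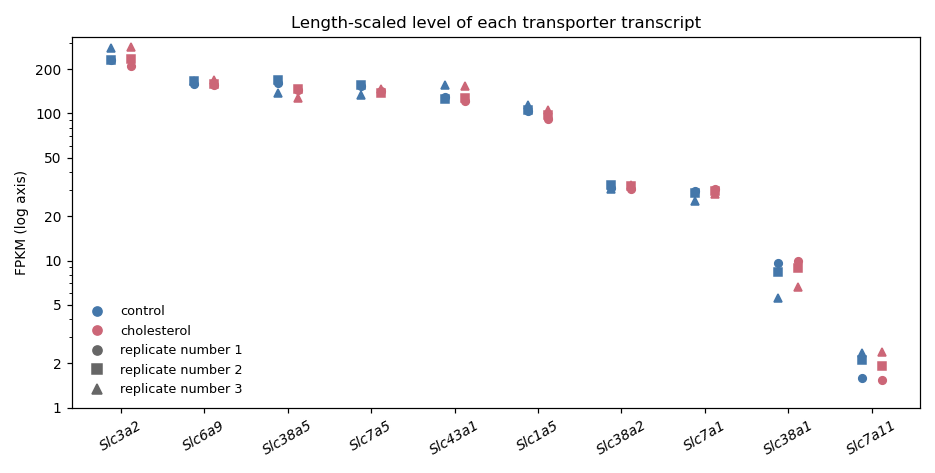
FPKM of the 10 carriers on a log axis, with control samples in blue, cholesterol samples in red and a symbol for each replicate number. Slc3a2 lies highest and Slc7a11 lowest, and 6 carriers lie near or above 100 FPKM.

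The comparison of cholesterol with control asks whether the transcripts of these carriers changed when erythroblasts matured in excess cholesterol. None of the 10 genes passed the test of edgeR (quasi-likelihood, condition alone), with an adjusted p of 0.9998 for each. At an unadjusted p under 0.05, edgeR called 0 and DESeq2 called 1 of the 10, where DESeq2 called 325 of all 11277 genes. Over all 11277 genes edgeR called 1 (0.00887%), Abcg1, a cholesterol exporter that rose from a mean of 5.89 to 97.8 CPM, and 297 (2.63%) had an unadjusted p under 0.05, 216 of them lower (1.92%). The 95% intervals of the carriers bounded what these samples allow: for Slc7a5 the interval of the log2 fold change ran from -0.25 to 0.10, whereas for Slc38a1 it ran from -0.46 to 0.61.

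Same-numbered samples resembled each other, and once the number was a block in the model, 772 genes (6.85%) were called, 186 higher (1.65%) and 586 lower (5.20%). That fit held 2213 genes (19.6%) at an unadjusted p under 0.05. In data simulated once from these samples the fit with the block made more false calls than its threshold allows, which bears on every call given with the block. It called 2 of the 10 carriers, both lower with cholesterol, namely Slc38a5 and Slc1a5. By direction, 8 of the 10 had a log2 fold change below 0, beside 47.9% of all genes, and the median of the 10 was -0.06, beside 0.01 for all genes tested. These 2 values moved with single samples. Without cholesterol sample 1 only 5 of the 10 lay below 0 and the median was -5.947e-04, and without control sample 3 these were 6 and -0.0152. The count stayed at 8 in the other fits with 1 sample left out. There the median was -0.0249 without cholesterol sample 2 and -0.126 without cholesterol sample 3. It was -0.0802 without control sample 1 and -0.0572 without control sample 2. Within same-numbered pairs, 5 carriers were lower with cholesterol in all 3 pairs (all genes, 20.1%), 0 were higher in all 3 (19.9%) and 5 were mixed. In none of the 10 did the groups stand apart, which 8.0% of all genes did.

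**Figure D2:**
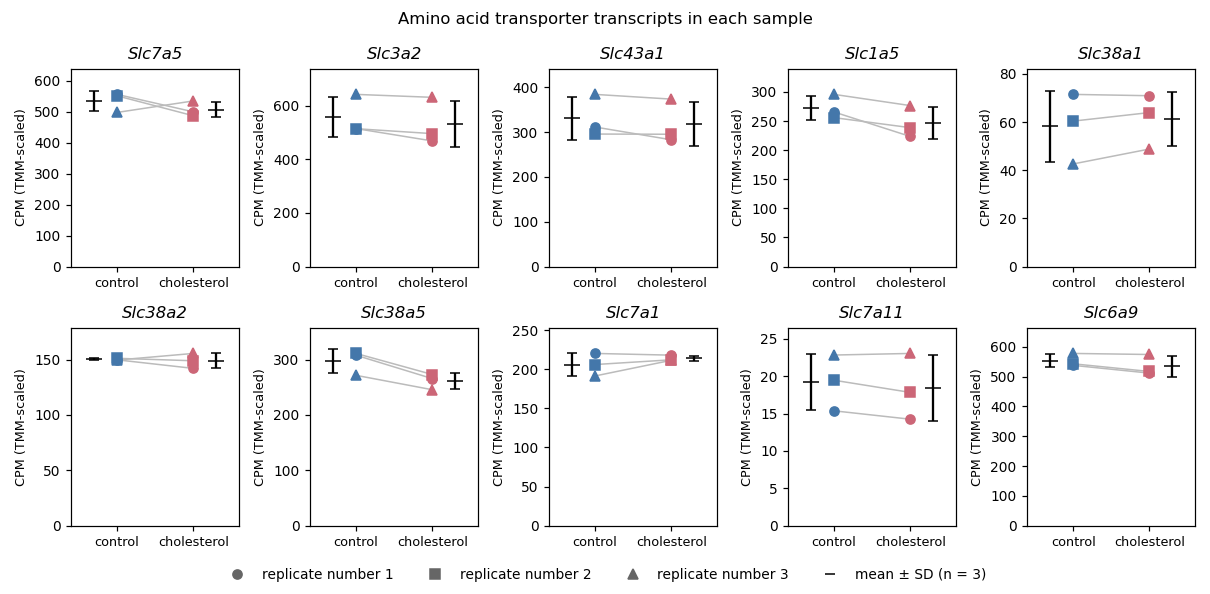
CPM of each carrier in the 3 control and 3 cholesterol samples, one panel per gene with its own axis, with a symbol for each replicate number and a bar for the mean ± SD. Grey lines join samples of the same number. The groups overlap in every panel, and for Slc38a5 only just, with the lowest control sample at 272 and the highest cholesterol sample at 273.

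The members of system L, which takes up leucine, phenylalanine and other large neutral amino acids, are Slc7a5 with its heavy chain Slc3a2 and Slc43a1, and none of these 3 was called with or without the block. Slc7a5 (LAT1), the exchanger itself, had 556, 552 and 498 CPM in control samples 1, 2 and 3 and 500, 487 and 535 in cholesterol samples 1, 2 and 3. Cholesterol samples 1 and 2 were lower than their controls and cholesterol sample 3 was higher, so the groups overlapped. Its log2 fold change was -0.08 ± 0.07 (SE), with differences within pairs of -0.15, -0.18 and +0.10. The block gave the same value with a 95% interval from -0.19 to 0.04, at an adjusted p of 0.471 (edgeR). Its value in that fit moved with each pair left out. The log2 fold change was -0.0353 without pair 1 (adjusted p 0.849), -0.0253 without pair 2 (0.916) and -0.169 without pair 3, where alone it was called (0.00405, edgeR).

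Slc3a2 (CD98 heavy chain), without which Slc7a5 and Slc7a11 do not reach the membrane, had 514, 514 and 642 CPM in control samples 1, 2 and 3 and 468, 495 and 631 in cholesterol samples 1, 2 and 3. Sample 3 was far above the others in both groups, and the treatment difference was small beside it. The log2 fold change was -0.07 ± 0.15, and the pairs differed by -0.14, -0.05 and -0.02. With the block the standard error shrank to 0.04 and the adjusted p was 0.363 (edgeR). The FPKM of 6 light chains that join Slc3a2 (Slc7a5, Slc7a6, Slc7a7, Slc7a8, Slc7a10 and Slc7a11) summed to 0.694, 0.716 and 0.523 of the FPKM of Slc3a2 in control samples and to 0.714, 0.630 and 0.559 of it in cholesterol samples. Sample 3 had the lowest ratio in each group, and the groups overlapped.

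Slc43a1 (LAT3) carries large neutral amino acids without a heavy chain. It had 311, 296 and 384 CPM in control samples 1, 2 and 3 and 283, 295 and 374 in cholesterol samples 1, 2 and 3. As for Slc3a2, sample 3 was the highest of each group, and the log2 fold change of -0.06 ± 0.15 lay within that spread (adjusted p with the block 0.481, edgeR).

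Of the 4 carriers of glutamine and small neutral amino acids, 2 were lower with cholesterol in every pair and 2 were not. Slc38a5 (SNAT5), which moves glutamine, histidine and other neutral amino acids with sodium, had 308, 311 and 272 CPM in control samples 1, 2 and 3. In cholesterol samples 1, 2 and 3 it had 266, 273 and 246 CPM. Each cholesterol sample was below the control of its number, by log2 differences of -0.21, -0.19 and -0.15, while the groups as a whole overlapped narrowly. The means were 297 ± 22.0 and 262 ± 14.2 CPM, a log2 fold change of -0.18 ± 0.08 with a 95% interval from -0.38 to 0.01 and an unadjusted p of 0.0585 in edgeR's fit with condition alone. With the block the log2 fold change was -0.18 ± 0.04 (interval from -0.27 to -0.10) and the adjusted p 0.00944 (edgeR). That call held in the fit with the block with RLE size factors, without robust estimation, without the globin genes and in DESeq2, at adjusted p between 0.0102 and 0.0215. It was lost at a log2 fold change of -0.164 without pair 1 (adjusted p 0.108) and of -0.179 without pair 2 (adjusted p 0.0858, edgeR with the block).

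Slc1a5 (ASCT2), an exchanger of glutamine for serine, threonine and other neutral amino acids, had 266, 256 and 296 CPM in control samples 1, 2 and 3 and 223, 239 and 277 in cholesterol samples 1, 2 and 3. It was lower with cholesterol in each pair, by -0.25, -0.10 and -0.10 on the log2 scale, while cholesterol sample 3 exceeded control samples 1 and 2. The means were 272 ± 20.9 and 246 ± 27.3 CPM, a log2 fold change of -0.15 ± 0.10 without a call. With the block it was -0.15 ± 0.04 at an adjusted p of 0.0487 (edgeR), just past the threshold, and the call was lost without robust estimation (0.0820), without the globin genes (0.0520) and in DESeq2 (0.157). It was also lost with a pair left out, at a log2 fold change of -0.0963 without pair 1 (adjusted p 0.392) and of -0.173 without pair 2 (adjusted p 0.119, edgeR with the block).

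Slc38a1 (SNAT1) is a sodium-coupled importer of glutamine and alanine. It had 71.5, 60.4 and 42.6 CPM in control samples 1, 2 and 3 and 71.0, 64.0 and 48.8 in cholesterol samples 1, 2 and 3, so that sample 3 was the lowest of each group. The difference between groups (log2 fold change +0.07 ± 0.22) was within the spread, and the pairs differed by -0.01, +0.08 and +0.20. Its neighbour on chromosome 15 is Slc38a2 (SNAT2), a carrier that cells raise when amino acids are scarce. In control samples Slc38a2 was the steadiest of the 10 by CPM, though not by FPKM. Slc38a2 had 150, 151 and 150 CPM in control and 142, 149 and 156 in cholesterol samples 1, 2 and 3, with a log2 fold change of -0.01 ± 0.06. The control values lay inside the range of the cholesterol values.

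Slc7a1 (CAT1) brings in arginine and lysine. It had 220, 206 and 192 CPM in control samples 1, 2 and 3 and 218, 212 and 212 in cholesterol samples 1, 2 and 3, and the log2 fold change was +0.05 ± 0.07. The cholesterol values fell inside the control range. Slc7a11 (xCT), which takes up cystine in exchange for glutamate and so feeds glutathione synthesis, was the rarest member, at 15.4, 19.5 and 22.8 CPM in control samples 1, 2 and 3 and 14.2, 17.8 and 23.1 in cholesterol samples 1, 2 and 3. Its lowest value in each group was that of sample 1, and the log2 fold change was -0.07 ± 0.22. The values of Slc7a1, Slc7a11 and Slc3a2 are less certain, because their expected counts were not whole, as happens when reads are divided between features, whereas the other 7 had whole counts in every sample.

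Slc6a9 (GLYT1), the glycine carrier, was not called in either fit. It had 538, 543 and 578 CPM in control samples 1, 2 and 3 and 512, 518 and 575 in cholesterol samples 1, 2 and 3. The log2 fold change was -0.05 ± 0.07 with an interval from -0.22 to 0.12, and each pair lay below 0, by -0.07, -0.07 and -0.01. Slc25a38, the mitochondrial glycine carrier of the heme pathway, had 155, 159 and 162 CPM in control and 157, 158 and 153 in cholesterol samples 1, 2 and 3. Its log2 fold change was -0.02 ± 0.05.

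**Figure D3:**
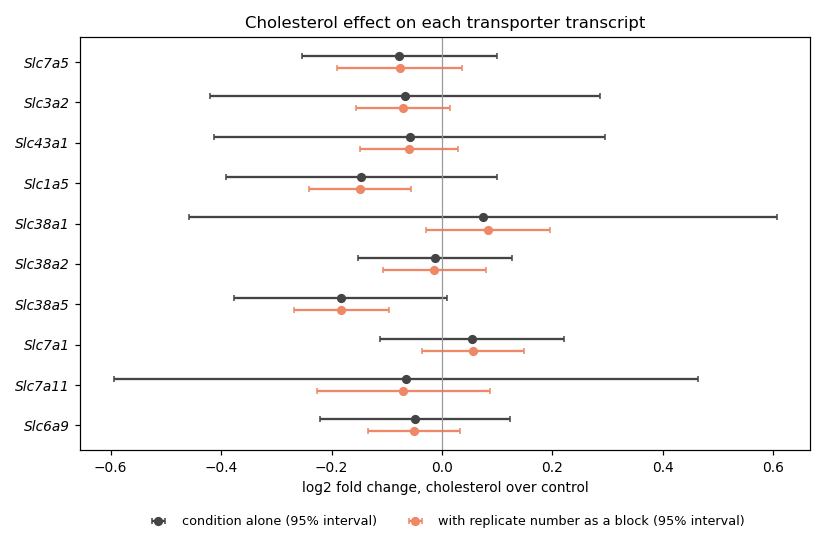
Log2 fold change (cholesterol minus control) of each carrier with its 95% interval, in the fits without and with the block on replicate number. The estimates differ little between the fits while the intervals narrow with the block, and only those of Slc38a5 and Slc1a5 then lie wholly below 0.

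**Figure D4:**
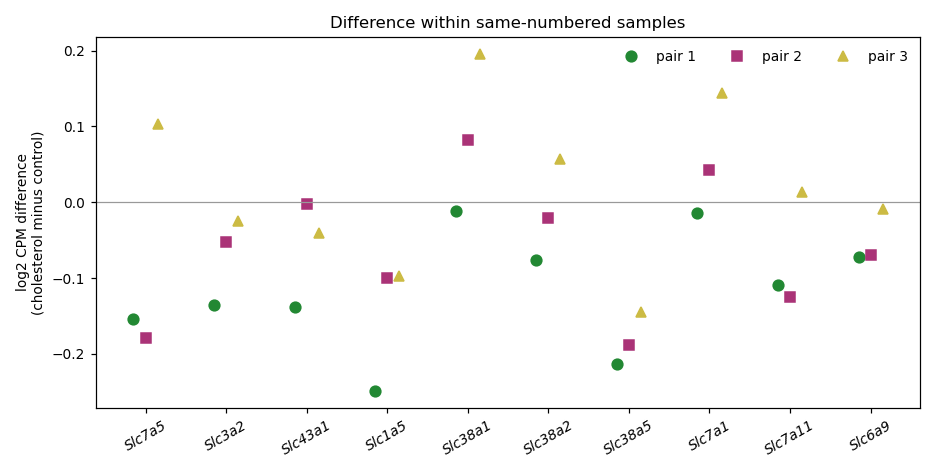
Difference in log2 CPM (cholesterol minus control) within each same-numbered pair of samples. For 8 carriers the difference in pair 1 lies at or below -0.07, whereas in pair 3 it lies above 0 for 5 carriers.

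The pairs did not behave alike. The median difference over the 10 carriers was -0.12 in pair 1, -0.06 in pair 2 and 0.00 in pair 3, and their summed CPM was 2951, 2909 and 3076 in control samples 1, 2 and 3 and 2698, 2750 and 3075 in cholesterol samples 1, 2 and 3. Slc7a5, Slc7a11 and Slc38a2 were lower with cholesterol in pairs 1 and 2 and higher in pair 3, while Slc38a1 and Slc7a1 were lower only in pair 1. Whether a treatment difference varied between pairs was not tested, since each pair holds 1 sample per group.

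Most carriers differed between replicate numbers. In a test of the number with condition kept in the model, chosen after the data were seen, 7 of the 10 carriers were called, beside 46.3% of all genes (edgeR, adjusted p under 0.05). Slc3a2, Slc43a1, Slc7a11, Slc1a5 and Slc6a9 were higher in sample 3 than in sample 1, and Slc38a1 and Slc38a5 were lower. The difference was largest for Slc38a1, which differed between samples 3 and 1 by a log2 value of -0.75 in control and -0.54 in cholesterol, and for Slc7a11, at 0.57 and 0.69. Slc3a2 differed by 0.32 and 0.43 and Slc43a1 by 0.30 and 0.40, whereas Slc7a5, the partner of Slc3a2, differed by -0.16 and 0.10 and was not called. Slc7a1 and Slc38a2 were not called either.

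**Figure D5:**
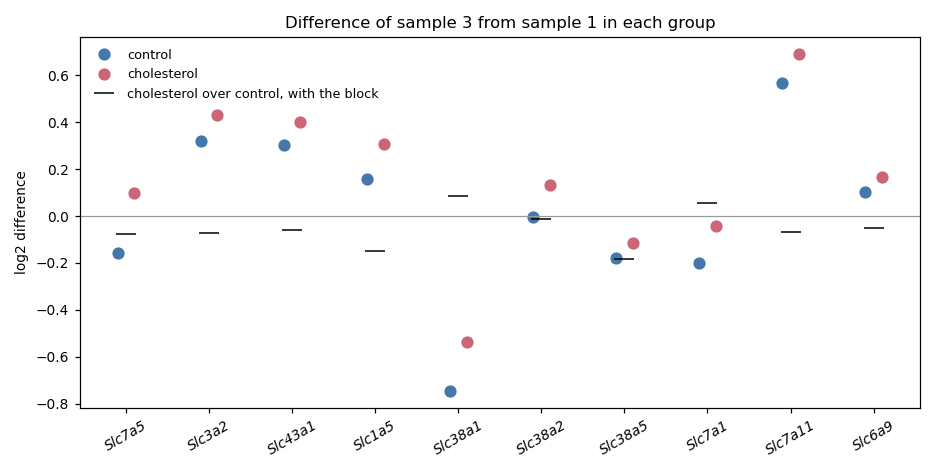
Log2 difference in CPM of sample 3 from sample 1 in control (blue) and in cholesterol (red) for each carrier, with a black dash for the log2 fold change of cholesterol over control in the fit with the block. In both groups Slc3a2, Slc43a1 and Slc7a11 lie at 0.30 or above and Slc38a1 lies at -0.54 or below.

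Marker genes were set beside these values. The summed CPM of 10 erythroid markers was 84404 to 107213 in control and 72888 to 101521 in cholesterol samples, with sample 3 highest in each group and none of the 10 at 0. Lower means with cholesterol were found for 10 of these 10 markers, beside a log2 fold change below 0 in 47.9% of all genes. With the block 2, Alas2 and Tfrc, were called lower. Over all genes 5.20% were called lower with the block, and with condition alone no marker of any list was called. The 10 granulocyte markers summed to 72.6 to 728 CPM in control and 44.0 to 303 CPM in cholesterol samples, and 9 were called lower with the block. The 10 macrophage markers summed to 19.0 to 131 CPM against 13.5 to 59.0 CPM (8 tested, 5 called lower). The 8 mast cell and basophil markers summed to 3.18 to 31.9 CPM against 1.28 to 5.27 CPM (3 tested, 3 called lower, Tpsb2 at 0 in every sample). Among the 6 markers of immature erythroid cells and progenitors, at 25.7 to 55.0 CPM against 18.2 to 20.5 CPM, 4 were called lower. The 8 late erythroid markers summed to 30134 to 37998 CPM against 27102 to 37153 CPM, with 0 called. Most of that sum was Slc4a1 and Hbb-bt, and only 3 of the 8 had a lower mean with cholesterol. Hepatocyte markers (6) summed to 123 to 355 CPM against 85.1 to 299 CPM, with 0 called lower and 1 of the 6 means lower with cholesterol. Megakaryocyte markers (6) summed to 64.2 to 83.3 CPM against 60.7 to 69.3 CPM, with 1 called lower and 5 of the 6 means lower. Lymphoid markers stayed at or below 3.53 CPM in sum, with Ms4a1 at 0. Control sample 3 had the highest sum of the 6 samples in each of these marker lists, erythroid and hepatocyte included. Per the methods these samples were sorted for TER119+ cells, and whether cells of other types remained after the sort was not tested. The part of these markers in the carriers' differences was not tested. In these bulk samples fewer cells of a type and less RNA per cell cannot be told apart.

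Other amino acid carriers were described from lists of the same pathway. Of 32 further plasma membrane carriers 29 were in the table and 15 could be tested. Without the block 0 were called, and 1, Slc6a6, had an unadjusted p under 0.05, while DESeq2 called 0. With the block 2 of the 15 were called, both lower, beside 5.20% of all genes called lower. Slc6a6, the taurine carrier, had 20.6, 25.7 and 29.8 CPM in control samples 1, 2 and 3 and 19.4, 20.9 and 19.7 in cholesterol samples 1, 2 and 3, a log2 fold change of -0.34 ± 0.14 (adjusted p with the block 0.0313, edgeR). The Slc6a6 call was lost with the block in DESeq2, without robust estimation, and without pair 2 or pair 3. Slc7a8 (LAT2), another light chain of Slc3a2, had 1.26, 4.61 and 17.3 CPM in control and 1.23, 1.93 and 7.77 CPM in cholesterol samples 1, 2 and 3, and its log2 fold change with the block was -1.01 ± 0.18 (adjusted p 0.00268, edgeR). That call was lost with the block in DESeq2 and without pair 2 or pair 3. The macrophage marker Csf1r had 4.75, 14.02 and 41.5 CPM in control and 3.11, 4.54 and 13.4 CPM in cholesterol samples 1, 2 and 3, also highest in control sample 3, and its part in the Slc7a8 difference was not tested. Slc16a10 (TAT1), the carrier of aromatic amino acids, had 258, 243 and 229 CPM in control and 216, 221 and 232 in cholesterol samples 1, 2 and 3, without a call (log2 fold change -0.13 ± 0.07). Slc1a7 and Slc6a18 stayed under 3 CPM in every sample. For Slc1a7 alone of the 15 the groups stood apart (all genes, 8.0%). It had 0.556, 0.941 and 0.831 CPM in control and 1.48, 1.09 and 1.07 CPM in cholesterol samples 1, 2 and 3. Slc1a7 was not called (log2 fold change +0.64 ± 0.33, adjusted p with the block 0.332, edgeR). In this list and the 3 that follow, DESeq2 with condition alone called 0 genes.

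Carriers inside the cell, of lysosomes and mitochondria, numbered 18 in the list, 17 in the table and 16 tested, and 0 were called with or without the block (edgeR), with 0 at an unadjusted p under 0.05 without the block and 2 with it (all genes with the block, 19.6%). The list had a median log2 fold change of 0.03. The smallest p-values belonged to the lysosomal carriers Slc36a4, Slc38a7 and Ctns and the mitochondrial glutamate carriers Slc25a18 and Slc25a22, and Slc25a22 was higher with cholesterol in each pair (24.9, 28.9 and 41.1 CPM in control and 26.96, 29.8 and 51.4 CPM in cholesterol samples 1, 2 and 3).

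Of 21 genes of the amino acid response, 19 were tested and 0 were called in either fit, with 0 at an unadjusted p under 0.05 without the block and 5 of 19 with it, beside 19.6% of all genes. Among them 13 had a log2 fold change above 0 and 6 below, with a median of 0.06. Atf4, the transcription factor of this response, had 904, 798 and 877 CPM in control and 764, 744 and 840 CPM in cholesterol samples 1, 2 and 3. It was lower in each pair while the groups overlapped, with a log2 fold change of -0.14 ± 0.08 (adjusted p with the block 0.0632, edgeR). Asns, the asparagine synthetase that ATF4 induces, was not among the genes with the smallest p (log2 fold change +0.06 ± 0.09). Cth, which makes cysteine from cystathionine and so lies beside the cystine carrier Slc7a11, had 4.04, 3.07 and 3.01 CPM in control and 4.29, 4.20 and 4.40 CPM in cholesterol samples 1, 2 and 3. Its groups did not overlap, but it was not called (log2 fold change +0.35 ± 0.20). Nupr1, Shmt2 and Atf5 had log2 fold changes of +0.26 ± 0.16, +0.10 ± 0.10 and +0.14 ± 0.15.

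All 23 cytosolic aminoacyl-tRNA synthetase and scaffold genes, whose products load the imported amino acids onto tRNA, were tested. Without the block 0 were called and 0 had an unadjusted p under 0.05. With the block 1 of the 23 was called, beside 6.85% of all genes, namely Vars, the valyl-tRNA synthetase, which was higher with cholesterol. It had 748, 704 and 643 CPM in control and 826, 749 and 752 CPM in cholesterol samples 1, 2 and 3, so the groups stood apart by a narrow margin, and the log2 fold change was +0.15 ± 0.08 (adjusted p with the block 0.0275, edgeR). The call was lost with the block without robust estimation and with any 1 of the 3 pairs left out. Of the 23, 18 had a log2 fold change above 0, as did 5872 of all 11277 genes, and 9 were higher in all 3 pairs (all genes, 19.9%), with a median of 0.02. Sars, Yars, Iars and Lars were higher by log2 values of 0.06 to 0.08 and were not called.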

How the data were processed

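RNA-seq was analysed for 3 control and 3 cholesterol-treated samples, grouped by their labels. One table deposited by the authors holds expected counts (estimates that can be fractional) without normalization, and the other holds normalized values of unnamed unit. The deposited normalized values were taken as FPKM (reads scaled to transcript length and library size), because count, total and normalized value implied the same length in every sample (CV under 0.05) for 8055 of 8326 genes with a mean count of at least 100 (96.7%). The submitters' processing notes list HISAT2 2.0.4, Bowtie2 2.2.5, RSEM 1.2.12, DESeq2 1.4.5 and GRCm38.p6, and the gene annotation is not given in the sources used here. Between 27.9% and 29.5% of the expected counts per sample were not whole. The test had been planned for whole counts, so they were rounded first.

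Counts were fitted in edgeR 4.0.16 (R 4.3.3) by the robust quasi-likelihood test with filterByExpr (at least 10 counts, at least 15 in total) and TMM normalization, and p-values were adjusted by the Benjamini-Hochberg method across 11277 of 17463 genes, with a threshold of 0.05. CPM are counts scaled to a common library size after TMM. Differences within same-numbered samples are on the log2(CPM) scale with a prior count of 2. The labels give replicate numbers 1 to 3 in both groups without saying what they stand for. Across genes, samples sharing a number deviated from their group means with correlations of 0.729, 0.348 and 0.825 for numbers 1, 2 and 3, all above the threshold of 0.1 for a pairing, so the fit with the number as a block is given where it changes a call. In data simulated once from these samples, the fit with condition alone made no false calls, and the fit with the block made more false calls than its threshold allows. The simulated data kept the differences between replicate numbers, which the fit with condition alone counts as spread. Its lack of false calls therefore cannot vouch for that fit. No library was counted as a copy, since comparing them in pairs gave a chi-square per degree of freedom of 8.65 or more.

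Total estimated counts lay between 19826849 and 20061724 per sample, and 3 counts were taken as the floor of detection, at a median of 0.151 CPM. Intervals are 95% intervals of the fit. The alternatives were DESeq2 1.42.0, RLE size factors, globin genes left out, other filters, limma 3.58.1 on log2(FPKM + 1) and log2(FPKM + 0.1) for genes with a mean FPKM of at least 1, and each sample or same-numbered pair left out. Further alternatives to the fit with the block were added after the data were seen. All 10 transporters are named, and from each further list at most the 5 genes with the smallest p, plus those called with or without the block. The members and lists were chosen with earlier results of these data known. Slc25a38, Asns, Abcg1 and the marker genes given by name were added to these with their values known.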

Additional observations from a re-analysis of the deposited data

How the results depend on the processing

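With condition alone, 0 of the 10 carriers were called under any alternative. With 1 sample left out, the log2 fold change of Slc3a2 ranged from -0.205 to 0.0491, that of Slc43a1 from -0.190 to 0.0648, that of Slc7a11 from -0.258 to 0.0893, that of Slc38a1 from -0.106 to 0.253 and that of Slc38a2 from -0.0425 to 0.0201. Signs turned without control sample 3 (the first 4 of these genes) or without cholesterol sample 1 (all 5), and those of the other 5 carriers did not turn. Their ranges were -0.126 to -0.0450 for Slc7a5, -0.234 to -0.0803 for Slc1a5, -0.243 to -0.137 for Slc38a5, 0.00573 to 0.110 for Slc7a1 and -0.101 to -0.0154 for Slc6a9. Slc38a2 also turned with limma on FPKM, to 0.0160 with a pseudocount of 1 and 0.0165 with 0.1, and to 0.0201 with the replicate block and without pair 1. None of these was called, and the cause was not tested. The median of the 10 lay between -0.126 (without cholesterol sample 3) and -5.947e-04 with 1 sample left out, and between -0.0843 and -0.0357 with the block and 1 pair left out.

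Over all genes 1 was called higher and 0 lower. The replicate block gave 186 higher and 586 lower, DESeq2 gave 3 and 28, and leaving out 1 sample gave 1 higher throughout and 0 to 7 lower (7 without control sample 3, 1 without cholesterol sample 3). With the block the counts were 130 and 514 without robust estimation, 161 and 559 with RLE size factors, 178 and 562 without the globin genes and 41 and 248 in DESeq2, all 4 chosen after seeing the data. They were 118 and 703 with the block and without pair 1, 67 and 229 without pair 2, and 210 and 516 without pair 3. Of the 10 carriers, the block called 2, and under the same 4 settings in that order 1, 2, 1 and 1, with Slc38a5 in each. It called 0 without pair 1 or pair 2 and 3 without pair 3. Of the other amino acid carriers the block called 2, then 1, 2, 2 and 0 under the 4 settings, and 2, 0 and 1 (Slc16a10) without pairs 1, 2 and 3. Of the amino acid response genes it called 0, and 1 (Atf5), 0 and 2 (Atf4 and Nupr1) without pairs 1, 2 and 3. Of the synthetase genes it called 1, Vars, then 0, 1, 1 and 1, and 0 with any pair left out. Slc7a11 rested on the fewest reads, with 289 to 451 estimated counts per sample, and each other carrier had at least 821.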
